A study of Mus musculus with 30 samples.

Results

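Expression of 28 genes of cholesterol synthesis and SREBP2 control was examined in mouse liver, out of 55335 genes counted by RNA-seq. The genes were listed by symbol and role, with earlier results of these data known. They are 20 enzymes on the route from acetyl-CoA to cholesterol and 4 genes that control the transcription factor SREBP2. The other 4 handle sterols or feed the pathway. Each symbol matched 1 gene, and all 28 passed the filter on low counts in all 12 comparisons, with a lowest count of 80 in any liver. Livers came from 30 male mice at 7 to 10 weeks of age, in 6 groups of 5: wild-type mice, mice homozygous for the Keap1 C151S knock-in (serine in place of the sensor cysteine), and Nrf2KO mice, which lack Nrf2 (gene Nfe2l2), each given vehicle or CDDO-Me. The background strain of all mice was the albino B6(Cg)-Tyr c-2J/J, so every group also carries that Tyr allele. The paper states that wild-type mice came from the Jackson Laboratory, while homozygous mutants were mated among themselves. A difference between mutant and wild-type mice therefore cannot be told apart from one of source or colony. CDDO-Me (bardoxolone methyl) is a synthetic triterpenoid that activates Nrf2 through Keap1. It was given once by mouth at 30 µmol/kg, the vehicle was DMSO and Cremophor-EL in PBS, and livers were taken 24 hours later. Both mutations are present in every cell of the animal, and whole liver was sequenced, 1 library for each mouse, so p-values below measure the spread between mice.

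Cholesterol is built from acetyl-CoA through mevalonate, the isoprenoid diphosphates, squalene and lanosterol, and liver is a main site of this synthesis. When sterols in the endoplasmic reticulum run low, the escort protein SCAP carries SREBP2 to the Golgi, where proteases release its transcriptional part, and genes for nearly the whole route are switched on together. INSIG proteins hold SCAP back when sterols are plentiful, and Insig1 is itself a target of SREBP. Nrf2 is a separate transcription factor that Keap1 marks for degradation until an electrophile such as CDDO-Me modifies the Keap1 sensor.

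SREBP2 binds sterol regulatory elements, usually beside the CCAAT boxes bound by NF-Y, so the promoters of the genes that the results turn on are printed for reference: Hmgcs1 and Acat2, the members whose promoter window held the sterol regulatory element core; Idi1 and Cyp51, the enzymes with the lowest adjusted p in wild-type mice; and Insig1, the control gene that separated the genotypes. Sequences are from RefSeq (build GRCm38.p6), run 5′ to 3′ on the strand of the gene, and cover 250 bases before to 50 bases after the annotated start. Capitals mark the core CACCCCAC or its reverse complement GTGGGGTG, and the CCAAT box or its reverse complement ATTGG.
Hmgcs1, chr13:119690101-119690400, plus strand: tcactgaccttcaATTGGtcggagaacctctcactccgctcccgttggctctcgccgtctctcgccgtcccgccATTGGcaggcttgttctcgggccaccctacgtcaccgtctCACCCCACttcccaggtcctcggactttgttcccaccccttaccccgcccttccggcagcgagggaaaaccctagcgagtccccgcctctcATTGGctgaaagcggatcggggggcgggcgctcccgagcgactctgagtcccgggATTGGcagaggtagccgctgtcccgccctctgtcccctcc
Acat2, chr17:12960676-12960975, minus strand: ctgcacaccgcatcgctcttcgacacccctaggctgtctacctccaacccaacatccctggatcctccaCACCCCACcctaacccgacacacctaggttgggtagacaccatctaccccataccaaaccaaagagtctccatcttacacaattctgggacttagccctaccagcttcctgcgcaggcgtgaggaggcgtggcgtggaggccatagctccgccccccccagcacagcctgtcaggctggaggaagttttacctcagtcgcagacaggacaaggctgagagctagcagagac
Idi1, chr13:8885356-8885655, plus strand: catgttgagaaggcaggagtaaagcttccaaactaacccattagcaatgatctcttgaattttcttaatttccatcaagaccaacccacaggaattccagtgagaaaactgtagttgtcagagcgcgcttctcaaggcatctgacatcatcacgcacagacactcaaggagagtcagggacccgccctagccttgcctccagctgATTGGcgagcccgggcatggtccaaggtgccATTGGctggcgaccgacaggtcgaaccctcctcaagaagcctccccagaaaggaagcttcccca
Cyp51, chr5:4104648-4104947, minus strand: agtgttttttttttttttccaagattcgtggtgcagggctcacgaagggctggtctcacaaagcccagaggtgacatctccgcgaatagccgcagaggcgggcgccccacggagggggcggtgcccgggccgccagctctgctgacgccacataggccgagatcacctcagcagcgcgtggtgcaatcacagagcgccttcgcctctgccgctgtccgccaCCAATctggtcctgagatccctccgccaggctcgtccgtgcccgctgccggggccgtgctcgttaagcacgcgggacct
Insig1, chr5:28071162-28071461, plus strand: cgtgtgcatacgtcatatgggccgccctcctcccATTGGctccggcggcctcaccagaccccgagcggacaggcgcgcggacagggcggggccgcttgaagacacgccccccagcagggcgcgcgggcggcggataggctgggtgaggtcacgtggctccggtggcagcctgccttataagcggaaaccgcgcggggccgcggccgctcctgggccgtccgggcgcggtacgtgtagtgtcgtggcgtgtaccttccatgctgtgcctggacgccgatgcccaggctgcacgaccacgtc
Promoters were found in the table for 23 of the 28 genes; Fdps, Fdft1, Sqle, Stard4 and Soat2 had none there. The core CACCCCAC was in a promoter of 2 of the 23 genes (8.70%), beside 3.30% of all 27025 genes with a promoter in the table. The CCAAT box was in 20 of the 23 (87.0%), beside 41.1% of all genes. The antioxidant response element core TGACNNNGC (reverse complement GCNNNGTCA), a motif of Nrf2, was in 5 of the 23 (Aacs, Dhcr7, Hsd17b7, Mvk and Pmvk; 21.7%), beside 14.0% of all genes, and the E-box CACGTG in 5 (Dhcr7, Hsd17b7, Insig1, Sc5d and Scap), beside 8.09%. Both strands were searched and no matches of different motifs overlapped in these genes. Only these exact motifs were searched, so variant forms of the sterol regulatory element are neither marked nor counted. Among the promoters printed, Hmgcs1 held 4 CCAAT boxes, Idi1 2, Cyp51 1, Insig1 1 and Acat2 none.

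Each library held 23667068 to 42073169 counts on genes (median 33229925). Nfe2l2 averaged 66.1 ± 4.2 CPM (counts scaled to a common library size; SD, n = 5) in wild-type vehicle livers and 35.2 ± 4.5 in Nrf2KO vehicle livers. Nqo1, a target of Nrf2, averaged 7.20 ± 2.4 CPM with vehicle and 64.4 ± 25 after CDDO-Me in wild-type mice, 6.70 ± 0.39 and 7.05 ± 1.0 in C151S mice, and 1.96 ± 0.52 and 2.55 ± 0.61 in Nrf2KO mice. The hepatocyte markers Alb, Apoa1, Ttr, Cps1 and Serpina1a were abundant in all 30 livers, with Alb at 48416 CPM or more. Arntl, a core gene of the circadian clock, was at 0.90 log2 CPM or lower in 11 of the 20 mutant livers and at 2.52 or higher in the other 9 and in all 10 wild-type livers. These low-Arntl livers are C151S vehicle mice 4 and 5, C151S CDDO-Me mice 3, 4 and 5, Nrf2KO vehicle mice 1, 2 and 3, and Nrf2KO CDDO-Me mice 1, 3 and 4. The labels give no date or time of collection, so a batch of collection cannot be told apart from this split. C151S CDDO-Me mouse 1 and Nrf2KO CDDO-Me mouse 2 were the libraries least like the rest of their groups, with median correlations of 0.925 and 0.928 over log2 CPM, and counts of called members in the comparisons they enter are also given without them.

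Per kilobase of exon, the most abundant members in wild-type vehicle livers were Insig1 (169 CPM per kb), Sc5d (165), Ebp (103) and Hmgcs1 (101), and the least abundant were Ggps1 (2.09), Lbr (2.62), Mylip (2.80) and Fdps (3.74). Fdps shares its strand with the overlapping genes Gm43738 and Gm22935, and Lbr with Gm26004. Their counts, and so their places in this order, are less certain. Over the 30 livers, the CPM of single members spanned very different ranges. Hmgcs1 had the widest, with its highest liver 24.9 times its lowest, followed by Idi1 at 22.5 times and Fdps at 16.1 times. Ebp, the sterol isomerase, had the narrowest at 1.53 times, followed by Ggps1, which makes geranylgeranyl diphosphate on a side branch, at 1.64 times.

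**Figure D1:**
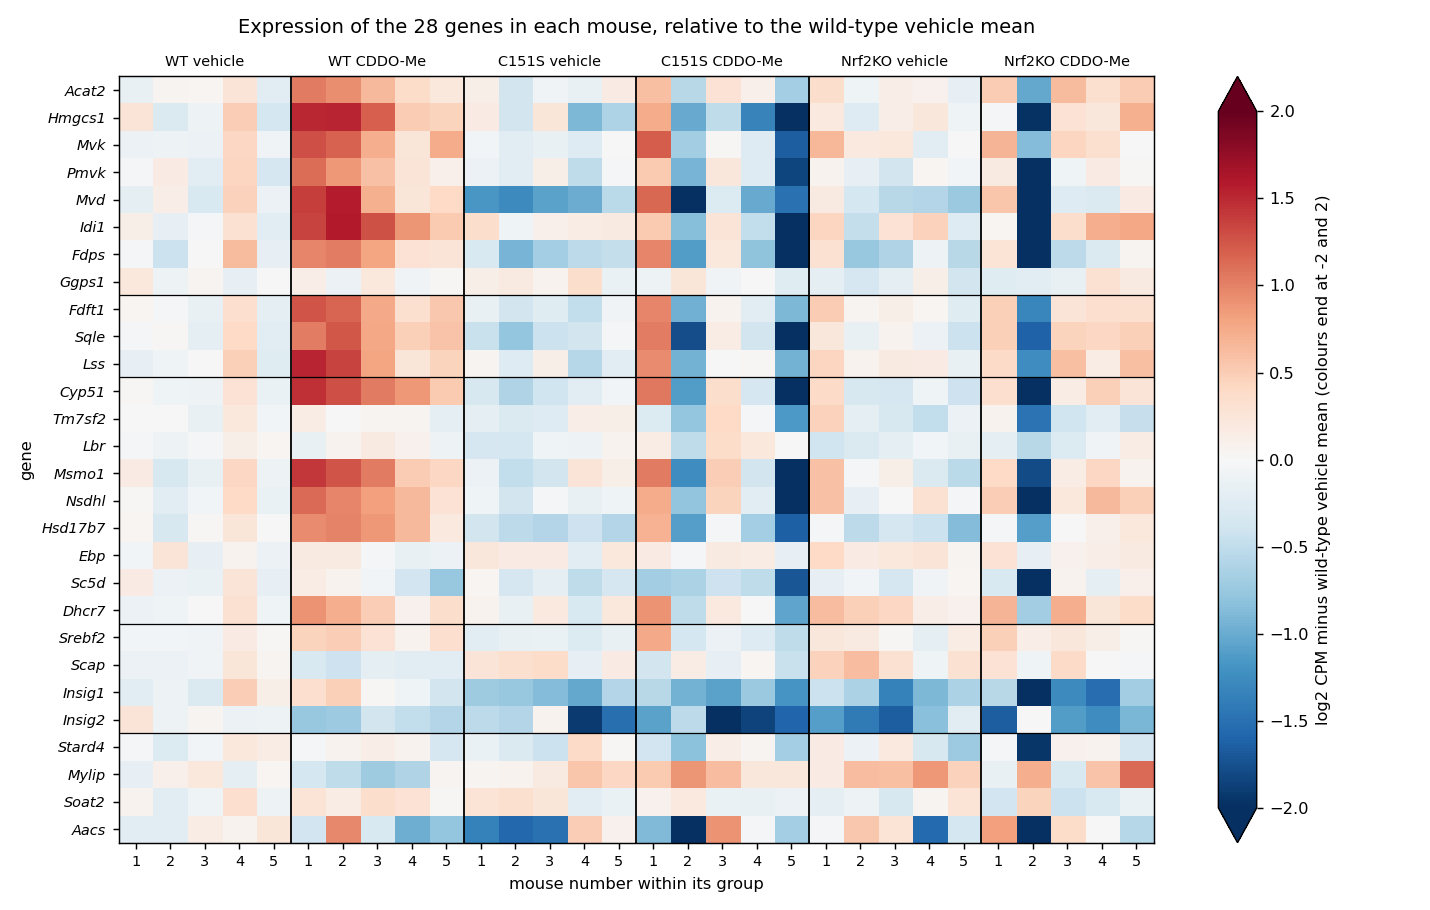
Log2 CPM of each of the 28 genes (rows, in pathway order) in each of the 30 mice (columns), minus the mean of the 5 wild-type vehicle mice; red is higher, blue lower, and black lines part the groups and the role classes. Most enzymes are red in the wild-type CDDO-Me mice, above all in mice 1, 2 and 3, and blue in Nrf2KO CDDO-Me mouse 2 and C151S CDDO-Me mice 2 and 5.

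In wild-type mice, CDDO-Me raised the mRNA of 11 of the 20 enzymes, from Acat2 at the head of the route to those that remove the methyl groups of lanosterol. None of the enzymes that reduce or move double bonds of the sterol passed the test. Dhcr7 among them was close to the threshold, and these sets of enzymes were not tested against each other. By edgeR's quasi-likelihood test, 11 of the 28 members rose and 1 fell (called at an adjusted p below 0.05 with a log2 fold change of 0.5 or more in size), where 2.75% of all 13697 genes tested were called, 227 up and 150 down. The median log2 fold change was 0.56 over the members and -0.01 over all genes. Because whole liver was sequenced, a change in the number of cells of a type cannot be told apart from a change in RNA per cell. All 11 that rose were enzymes: 4 of 8 in the mevalonate part, all 3 of squalene and lanosterol formation, and 4 of 9 in sterol processing.

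In the mevalonate part, Idi1, which isomerizes isopentenyl diphosphate, was at 27.6, 22.7, 24.9, 31.4 and 22.0 CPM in the vehicle mice and at 65.2, 76.6, 61.9, 46.9 and 36.9 CPM in the CDDO-Me mice. Every treated mouse was above every vehicle mouse, and the log2 fold change was 1.15 ± 0.18 (SE; adjusted p = 0.0025). Hmgcs1, which makes HMG-CoA, was at 542, 373, 421, 637 and 354 CPM with vehicle and at 1285, 1301, 1042, 647 and 615 CPM after CDDO-Me. Treated mice 1, 2 and 3 were far above all vehicle mice, mouse 4 was just above the highest and mouse 5 below it; the log2 fold change was 1.07 ± 0.24 (adjusted p = 0.023). Mvk, mevalonate kinase, rose by 0.86 ± 0.18 on the log2 scale (adjusted p = 0.017). Acat2, the cytosolic thiolase at the head of the route, also rose. Mvd, the decarboxylase after Pmvk, had a change of 0.93 ± 0.25 that missed the threshold (adjusted p = 0.057): it was at 28.4, 35.1, 26.1, 44.4 and 29.6 CPM with vehicle and at 84.3, 95.4, 52.7, 37.9 and 42.2 CPM after CDDO-Me, with mice 4 and 5 inside the vehicle range. Pmvk, phosphomevalonate kinase (0.60 ± 0.19, adjusted p = 0.11), and Fdps, farnesyl diphosphate synthase (0.65 ± 0.20, adjusted p = 0.099), also missed it. Ggps1 had a log2 fold change of 0.03 ± 0.10.

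All 3 genes that carry the pathway from farnesyl diphosphate to lanosterol rose. Sqle, squalene epoxidase, was at 105, 109, 94.6, 140 and 91.5 CPM with vehicle and at 216, 251, 183, 148 and 159 CPM after CDDO-Me. The groups did not overlap, and the log2 fold change was 0.82 ± 0.15 (adjusted p = 0.0092). Fdft1, squalene synthase, was at 168, 159, 147, 206 and 143 CPM with vehicle and at 391, 368, 276, 204 and 238 CPM after CDDO-Me (log2 fold change 0.84 ± 0.17, adjusted p = 0.016). Only treated mouse 4 lay within the vehicle range. The 2 called members with the highest p, Lss (lanosterol synthase) and Acat2, had log2 fold changes of 0.92 and 0.66.

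Past lanosterol, the genes that remove its methyl groups rose and those that reduce or move its double bonds did not pass the test. Cyp51, lanosterol demethylase, was at 228, 211, 209, 274 and 205 CPM with vehicle and at 617, 547, 459, 408 and 321 CPM after CDDO-Me, without overlap (log2 fold change 1.05 ± 0.16, adjusted p = 0.0020). Msmo1, Nsdhl and Hsd17b7 take part in removing the other methyl groups. Nsdhl was at 113, 95.2, 108, 147 and 102 CPM with vehicle and at 246, 221, 199, 174 and 137 CPM after CDDO-Me (0.78 ± 0.15, adjusted p = 0.012). Hsd17b7 was at 72.2, 56.4, 71.6, 83.1 and 69.9 CPM with vehicle and at 135, 139, 128, 110 and 80.2 CPM after CDDO-Me (0.74 ± 0.14, adjusted p = 0.011). In both genes treated mouse 5 alone lay within the vehicle range. Msmo1 rose by 0.95 ± 0.20 on the log2 scale (adjusted p = 0.017). Dhcr7, the final reductase, was at 0.52 ± 0.14 (adjusted p = 0.056). The sterol reductases Tm7sf2 and Lbr and the isomerase Ebp each had a log2 fold change of 0.01, with SE of 0.08, 0.08 and 0.10, and Sc5d, the desaturase, one of -0.17 ± 0.16. Tm7sf2 shares its strand with the overlapping gene Vps51, so its count is less certain.

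Of the control genes, Insig2 alone was called. It was at 249, 193, 215, 191 and 193 CPM with vehicle and at 122, 126, 160, 148 and 138 CPM after CDDO-Me, and fell without overlap by 0.59 ± 0.10 on the log2 scale (adjusted p = 0.0042). Srebf2, which encodes SREBP2, was at 61.8, 62.0, 60.9, 71.9 and 65.2 CPM with vehicle and at 87.8, 89.9, 78.7, 67.6 and 81.4 CPM after CDDO-Me. Its log2 fold change of 0.33 ± 0.08 had an adjusted p of 0.044 but was under the fold threshold; treated mouse 4 lay within the vehicle range. Insig1, by contrast with the enzymes, had a log2 fold change of 0.07 ± 0.17: it was at 445, 478, 422, 720 and 555 CPM with vehicle and at 648, 717, 520, 483 and 398 CPM after CDDO-Me, in overlapping ranges. Scap had a change of -0.28 ± 0.08 (adjusted p = 0.070), with all treated mice below all vehicle mice. The 4 sterol handling genes did not pass: Soat2, which esterifies cholesterol, was at 0.20 ± 0.10, Stard4, a sterol carrier, at -0.03 ± 0.10, Aacs, which makes acetoacetyl-CoA from ketone bodies, at -0.13 ± 0.30, and Mylip, a ubiquitin ligase that degrades lipoprotein receptors, at -0.42 ± 0.14 (adjusted p = 0.14). Without regard to the fold threshold or the test, 3 members (Cyp51, Idi1 and Sqle) had all 5 treated mice above all 5 vehicle mice, where 3.38% of all genes did. All 5 treated mice were below all 5 vehicle mice for 2 members (Insig2 and Scap), and for 291 of the 13697 genes tested.

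The call of this set depended on which livers shared the fit. In 1 fit of all 30 livers, whose shared spread includes the mutant groups, no member was called in wild-type mice: the lowest adjusted p was 0.20 (Lss), 14 members were under 0.05 before adjustment, and the median log2 fold change was 0.57. DESeq2 on the same 10 livers called 16. Without wild-type vehicle mouse 3, or without wild-type vehicle mouse 5, 6 members were called (Idi1, Sqle, Cyp51, Nsdhl, Hsd17b7 and Insig2 in both). The summed hepatocyte markers were lower after treatment, at 74541 to 97848 CPM beside 90912 to 111994 with vehicle, with 0 of 5 called by edgeR, 0 of 5 Kupffer, 0 of 5 endothelial, 0 of 5 stellate and 0 of 5 cholangiocyte markers called, and 1 of 5 lymphocyte and neutrophil markers (S100a8) called up; their part in the result was not tested.

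**Figure D2:**
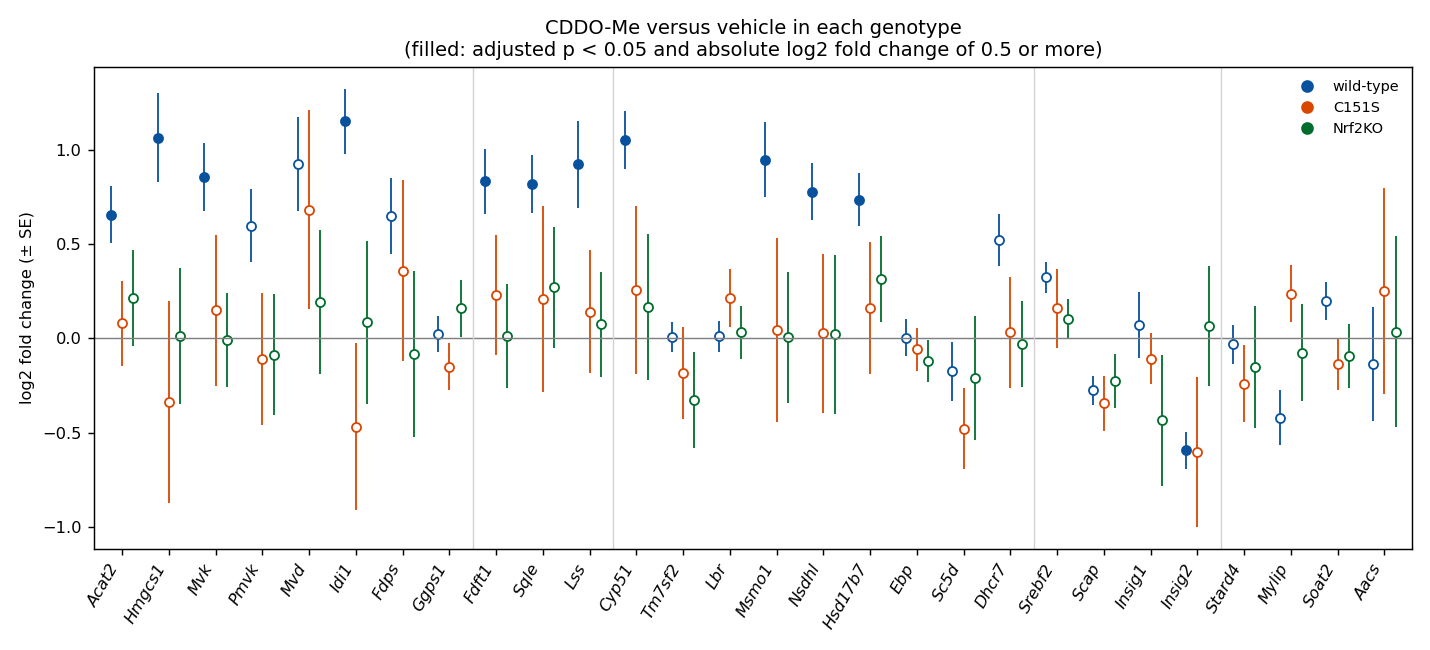
Log2 fold change of CDDO-Me against vehicle for the 28 genes in wild-type, C151S and Nrf2KO mice, with SE (5 mice in each group); filled points passed the test and vertical lines part the role classes. Filled points are found in wild-type mice alone, and the SE of most enzymes is wider in the mutants.

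In neither mutant did any member pass the test after CDDO-Me. In C151S mice 0 of 28 members were called by edgeR, with 2 under 0.05 before adjustment (Scap and Sc5d) and 0 by DESeq2, where 0.092% of 14128 genes were called. The median log2 fold change was 0.04 over the members and -0.01 over all genes. In Nrf2KO mice 0 of 28 were called, with 0 under 0.05 before adjustment and 0 by DESeq2, where 0% of 14474 genes were called; the median was 0.01 over the members and -0.01 over all genes. No member had all treated mice above all vehicle mice in either mutant (0.856% of all genes in C151S and 1.06% in Nrf2KO mice). The 20 enzymes had log2 fold changes from -0.48 (Sc5d) to 0.68 (Mvd) in C151S mice and from -0.33 (Tm7sf2) to 0.31 (Hsd17b7) in Nrf2KO mice.

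Treated mice differed widely within the C151S group, and in the Nrf2KO group mouse 2 stood apart. Hmgcs1 in C151S mice was at 507, 350, 534, 242 and 296 CPM with vehicle and at 760, 224, 318, 180 and 52.3 CPM after CDDO-Me. Mouse 1 was above all vehicle mice, and mice 2, 4 and 5 were below them all. In Nrf2KO mice Hmgcs1 was at 520, 377, 499, 532 and 428 CPM with vehicle and at 445, 115, 554, 533 and 738 CPM after CDDO-Me, where mouse 2 alone was below the vehicle range. Idi1 followed the same order at the extremes, at 36.7, 14.2, 30.4, 18.1 and 3.40 CPM in treated C151S mice and 26.3, 5.13, 32.5, 42.1 and 43.6 CPM in treated Nrf2KO mice. With vehicle it was at 24.0 to 32.7 CPM and 18.3 to 35.0 CPM in these genotypes.

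The later enzymes showed the same livers at the extremes. Sqle was at 62.2 to 105 CPM in C151S vehicle mice and at 218, 31.2, 119, 83.1 and 23.7 CPM after CDDO-Me, and at 78.8 to 124 CPM in Nrf2KO vehicle mice and 149, 34.6, 145, 143 and 148 CPM after CDDO-Me. Cyp51 was at 148 to 216 CPM in C151S vehicle mice and at 465, 103, 287, 177 and 54.2 CPM after CDDO-Me. In Nrf2KO mice it was at 168 to 293 CPM with vehicle and at 284, 47.1, 249, 313 and 267 CPM after CDDO-Me. C151S mouse 1 was therefore near the wild-type treated mice for both genes, and C151S mice 2 and 5 and Nrf2KO mouse 2 were under every vehicle mouse of the study. Mvd was at 71.4, 6.20, 26.5, 15.9 and 11.3 CPM in treated C151S mice and at 47.1, 6.68, 26.8, 26.2 and 36.0 CPM in treated Nrf2KO mice. Hsd17b7 was at 113, 32.5, 68.3, 43.7 and 22.5 CPM, and at 68.6, 32.7, 70.2, 75.4 and 81.4 CPM. Nsdhl was at 187, 65.0, 153, 96.3 and 21.5 CPM, and at 158, 20.3, 130, 176 and 156 CPM. Fdft1 was at 322, 83.5, 171, 141 and 87.8 CPM, and at 227, 66.2, 195, 205 and 205 CPM.

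**Figure D3:**
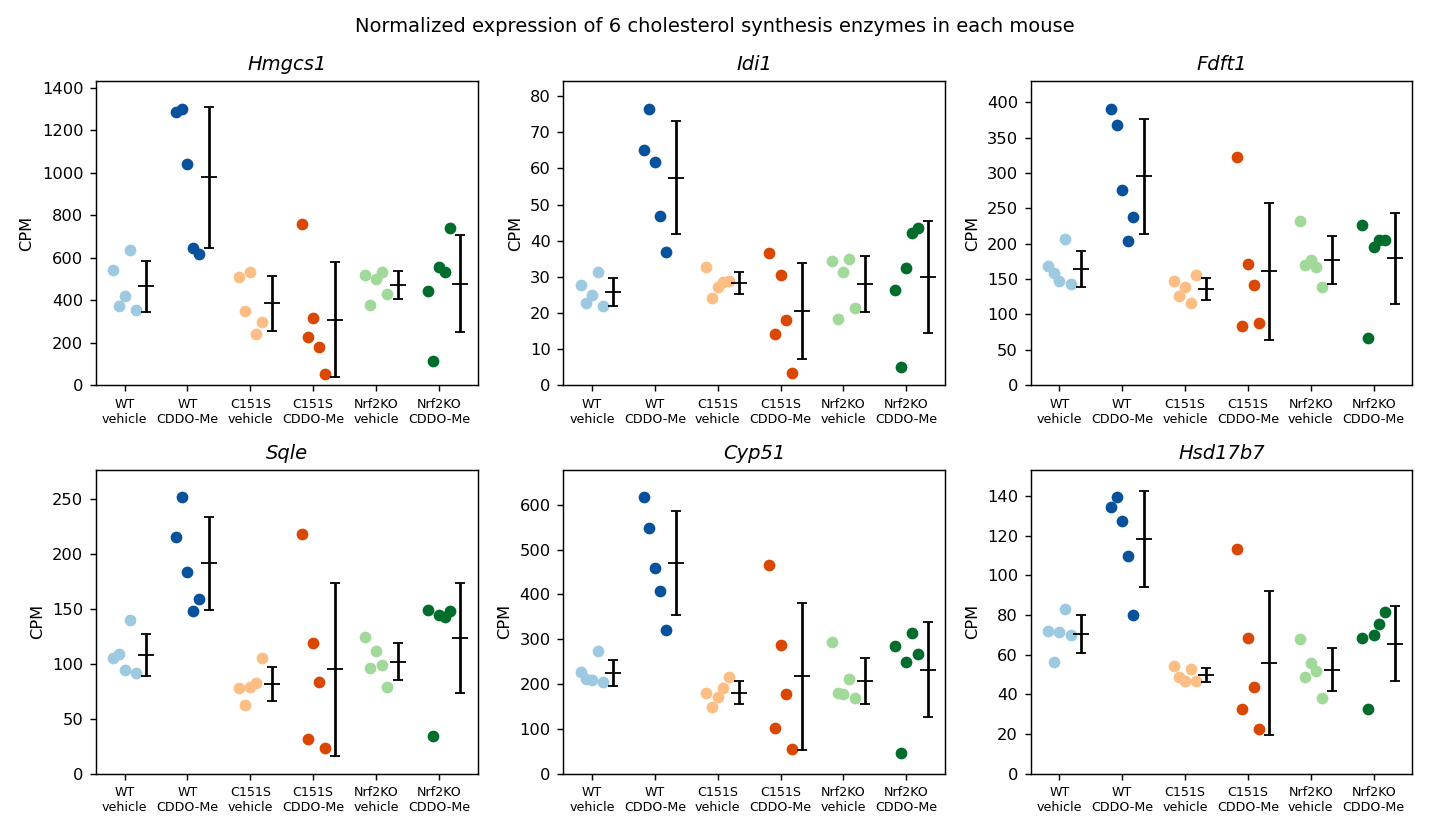
CPM of 6 enzymes in each mouse, by group (5 points in each, in mouse order from left to right), with the mean and SD as a bar beside them. Treated wild-type mice are high, the treated C151S mice are spread from below to above their vehicle mice, and mouse 2 is the lowest of the treated Nrf2KO mice.

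The spread can be given over the 20 enzymes together. The mean of their log2 CPM ranged over 0.46 among wild-type vehicle mice, 0.28 among C151S vehicle mice and 0.53 among Nrf2KO vehicle mice. After CDDO-Me it ranged over 0.69 in wild-type, 2.16 in C151S and 1.78 in Nrf2KO mice. The median SD of single enzymes was 0.93 in treated C151S mice and 0.85 in treated Nrf2KO mice, where the median SD over 15010 genes was 0.29 in both groups. The Nrf2KO spread rested on mouse 2: the other 4 mice lay between 6.49 and 6.62, a range of 0.12 with a median SD of 0.19, which was below that of the Nrf2KO vehicle mice (0.26). The C151S range was 1.66 without mouse 1 and 1.50 without mouse 5, with median SDs of 0.72 and 0.73. In Nrf2KO CDDO-Me mouse 2 all 20 enzymes were below the lowest wild-type vehicle mouse, and in C151S CDDO-Me mice 2 and 5 18 of 20 were. In C151S CDDO-Me mouse 1, 16 of 20 were above the highest wild-type vehicle mouse, as were 15, 15, 16, 8 and 6 in wild-type CDDO-Me mice 1 to 5. The share of all genes outside the wild-type vehicle range was not computed for these mice, so these counts have no background beside them. Arntl was low in C151S CDDO-Me mouse 5 and not in mouse 2 or in Nrf2KO CDDO-Me mouse 2. In C151S CDDO-Me mouse 1 the summed hepatocyte markers were the lowest of all livers, at 62056 CPM. The summed lymphocyte and neutrophil markers were the highest there, at 15.0 CPM. That sum came mostly from the neutrophil markers S100a9 (281 counts) and S100a8 (141 counts). The lymphocyte markers Cd3e, Cd79a and Ms4a1 had 7, 11 and 4 counts there, beside 27, 56 and 43 in their highest livers. In Nrf2KO CDDO-Me mouse 2 the 2 sums were 72170 and 5.11 CPM. The part of these values in the result was not tested.

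The enzymes moved together from mouse to mouse. Over the 190 pairs of enzymes, the correlation of their deviations from the group means across 30 livers had a median of 0.83 (range -0.13 to 0.98). It was 0.69 in the 28 livers left without Nrf2KO CDDO-Me mouse 2 and C151S CDDO-Me mouse 5. Sqle (median of 0.91 with the other enzymes), Fdft1 (0.90) and Fdps (0.89) had the highest values, and Ggps1 (0.05) and Lbr (0.48) the lowest. In the 28 livers Fdft1 (0.86), Mvd (0.83) and Nsdhl (0.82) had the highest, with Sqle at 0.82 and Fdps at 0.77, and Ggps1 (-0.30) and Sc5d (0.28, from 0.71) the lowest, with Lbr at 0.39. Among the control genes the median correlation with the enzymes was 0.64 for Insig1, 0.59 for Srebf2, 0.11 for Scap and -0.29 for Insig2, and among the sterol handling genes 0.64 for Stard4, 0.48 for Aacs, -0.16 for Mylip and -0.29 for Soat2. In the 28 livers these were 0.41 for Insig1, 0.63 for Srebf2, -0.28 for Scap, -0.19 for Insig2, 0.31 for Stard4, 0.29 for Aacs, -0.19 for Mylip and -0.00 for Soat2, and the choice of the 2 livers was made after seeing the data. These values describe the 30 libraries, whose genes share depth and scaling, and the deviations are not independent tests.

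Whether the response differed between genotypes was tested as an interaction in 1 fit of all 30 livers. For wild-type minus C151S, 0 of 28 members passed by edgeR at an adjusted p below 0.05, with 3 under 0.05 before adjustment (Hmgcs1, Idi1 and Mylip) and 0 by DESeq2, where 0.48% of 15010 genes passed. The median difference was 0.32 over the members, beside 0.00 over all genes, and 19 of 20 enzymes had a larger value in wild-type mice. The difference was 1.62 ± 0.58 for Idi1 (adjusted p = 0.44), 1.40 ± 0.62 for Hmgcs1 (adjusted p = 0.55), 0.80 ± 0.55 for Cyp51 and 0.61 ± 0.55 for Sqle. For wild-type minus Nrf2KO, 0 of 28 passed, with 0 under 0.05 before adjustment and 0 by DESeq2, where 0.266% of all genes passed. The median difference was 0.47 over the members and -0.01 over all genes, with 1.07 ± 0.58 for Idi1, 1.05 ± 0.61 for Hmgcs1, 0.89 ± 0.55 for Cyp51 and 0.55 ± 0.55 for Sqle. For C151S minus Nrf2KO, 0 of 28 passed, with 0 under 0.05 before adjustment and 0 by DESeq2, where 0.0133% of all genes passed. So 11 of 20 enzymes passed the test within wild-type mice (0 in the fit of all 30 livers) and 0 within either mutant, but a difference in response between genotypes was not shown for any member. Nqo1 passed both wild-type interactions, with differences of 3.09 ± 0.31 from C151S and 2.78 ± 0.33 from Nrf2KO mice.

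Single treated mice moved these values. Without C151S CDDO-Me mouse 1, no member was called in C151S mice (median -0.23) and none differed from wild-type in response, with 14 under 0.05 before adjustment, a median difference of 0.79 and 2.08 ± 0.55 for Hmgcs1 (adjusted p = 0.13). Without Nrf2KO CDDO-Me mouse 2, no member was called in Nrf2KO mice by edgeR, with 4 under 0.05 before adjustment and a median of 0.19. The log2 fold changes were then 0.51 ± 0.12 for Sqle (adjusted p = 0.58), 0.49 ± 0.15 for Hsd17b7 and 0.43 ± 0.16 for Cyp51, and the median difference from wild-type mice was 0.29 with none passing. For C151S minus Nrf2KO, no member passed without C151S mouse 1 or without Nrf2KO mouse 2, with 0 and 1 under 0.05 before adjustment and medians of -0.29 and -0.15.

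Without the drug, the enzymes of the mutants were mostly near wild-type levels, and Insig1 was the one member called in both mutants, lower in each. In C151S vehicle mice 2 of 28 members were called by edgeR, both lower, where 4.84% of 13946 genes were called, so the members' share was near the background; the median was -0.14 over the members and 0.01 over all genes. Mvd was at 14.3, 13.2, 15.2, 16.2 and 22.2 CPM, under all 5 wild-type values of 26.1 to 44.4 CPM, and differed by -1.0 ± 0.16 on the log2 scale (adjusted p = 0.0053). Insig1 was at 314, 303, 281, 252 and 341 CPM, under all wild-type values of 422 to 720 CPM, and differed by -0.80 ± 0.14 (adjusted p = 0.0078). Hsd17b7, at 46.7 to 54.5 CPM beside 56.4 to 83.1 CPM, had an adjusted p of 0.011 with a difference of -0.49 ± 0.09, under the fold threshold. The other 26 members ran from -0.71 (Insig2) to 0.28 (Mylip), with Srebf2 at -0.17 ± 0.07: it was at 55.5, 57.9, 58.6, 53.1 and 58.0 CPM. In 1 fit of all 30 livers neither call remained (adjusted p = 0.20 for Mvd and 0.073 for Insig1), and without wild-type vehicle mouse 2, 4 members were called.

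In Nrf2KO vehicle mice 3 of 28 members were called, where 10.4% of 14030 genes were, a share close to that of the members. The median was -0.05 over the members and 0.01 over all genes, and none of the 20 enzymes was called. Insig1 was at 380, 333, 201, 275 and 332 CPM, under all wild-type values, with a difference of -0.77 ± 0.18 (adjusted p = 0.015). Insig2 was at 96.7, 77.2, 66.2, 116 and 178 CPM, under the wild-type values of 191 to 249 CPM, with a difference of -0.94 ± 0.23 (adjusted p = 0.018). Mylip was higher, at 10.1, 13.9, 13.7, 16.5 and 12.4 CPM beside 7.98 to 10.4 CPM in wild-type mice, with a difference of 0.57 ± 0.14 (adjusted p = 0.018). Dhcr7 had an adjusted p of 0.046 with a difference of 0.37 ± 0.11, under the fold threshold. Srebf2 was at 75.2, 72.5, 65.2, 56.8 and 71.1 CPM, overlapping the wild-type mice, and Mvd at 36.5, 25.2, 21.8, 21.5 and 19.3 CPM (-0.38 ± 0.18, adjusted p = 0.16).

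Part of this moved with the clock genes. With the Arntl set as a covariate, Insig1 in Nrf2KO vehicle mice kept its difference (-0.76 ± 0.25) but not its call (adjusted p = 0.087), while Insig2 shrank to -0.47 ± 0.18 (adjusted p = 0.13); Mylip was called at 0.70 (adjusted p = 0.035). In the fit of all 30 livers Insig1 and Insig2 were called and Mylip was not (adjusted p = 0.065). Without Nrf2KO vehicle mouse 1, 5 members were called, with Mvd and Hsd17b7 added. In C151S vehicle mice, the covariate left Mvd at -1.17 and Insig1 at -0.78, both called, and added Fdps (-0.64), Sqle (-0.53) and Aacs (-1.46). Between the mutants with vehicle, 0 of 28 members were called by edgeR, with 7 under 0.05 before adjustment and 0 by DESeq2, where 0.349% of 14323 genes were called; the median of C151S against Nrf2KO was -0.14, beside -0.01 over all genes, and the lowest adjusted p was 0.26 (Mvd).

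Markers of other cell types moved with this genotype difference in part. In Nrf2KO against wild-type vehicle mice, 3 of 5 endothelial markers (summed at 182 to 285 CPM beside 144 to 171 CPM), 2 of 5 stellate and fibroblast markers and 2 of 5 lymphocyte and neutrophil markers were called higher, with 0 of 5 hepatocyte, Kupffer or cholangiocyte markers called by edgeR. In C151S against wild-type vehicle mice, 1 marker of the 30 (Spp1, lower) was called. Their part in the results for Insig1, Insig2 and Mylip was not tested.

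**Figure D4:**
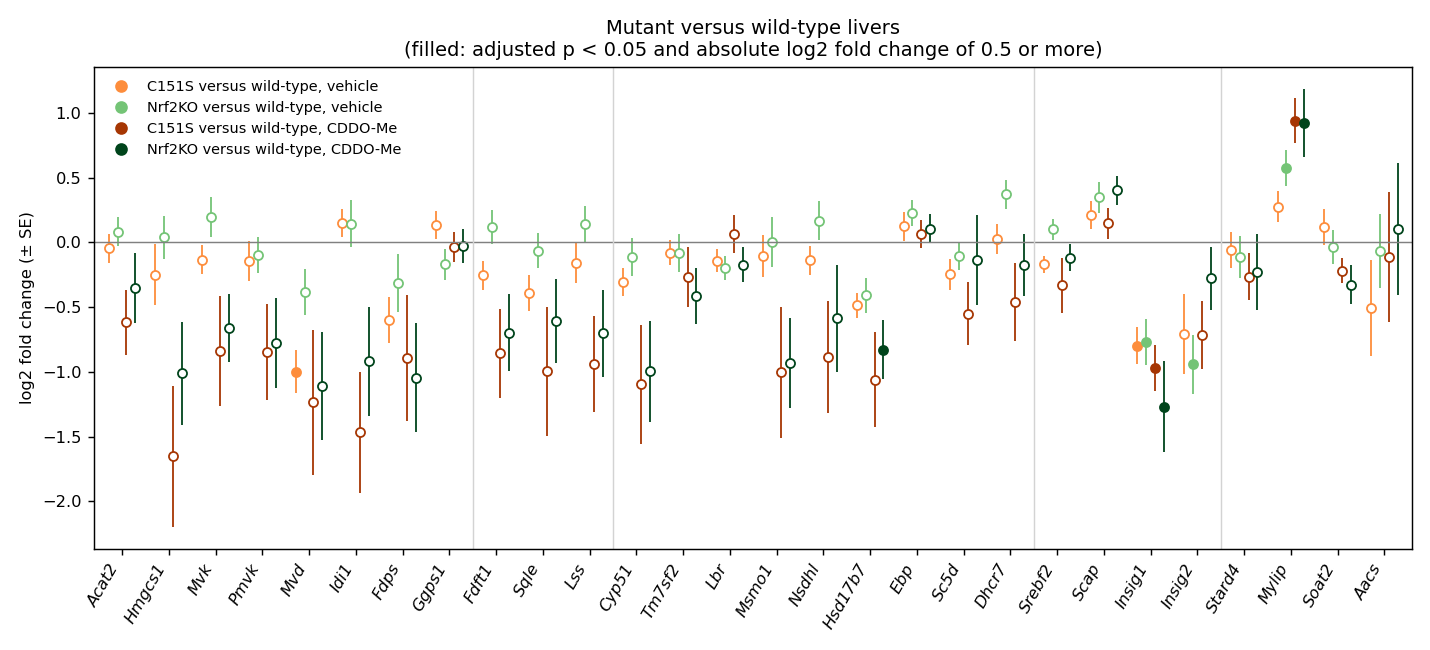
Log2 fold change of each mutant against wild-type mice for the 28 genes, with vehicle (light) and after CDDO-Me (dark), with SE (5 mice in each group); filled points passed the test. Insig1 is filled in all 4 comparisons, Mylip in 3, and the dark points of most enzymes lie below 0.

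After CDDO-Me, nearly all enzymes had lower values in the mutants than in wild-type mice, and few passed the test. In C151S mice 2 of 28 members were called by edgeR, where 5% of 13844 genes were called, again a share near that of the members. The median was -0.78 over the members and 0.03 over all genes, 18 of 20 enzymes were lower, and 14 members were under 0.05 before adjustment. Insig1, at 349, 266, 244, 306 and 226 CPM beside 398 to 717 CPM in wild-type mice, differed by -0.97 ± 0.18 (adjusted p = 0.0088). Mylip, at 12.9, 16.6, 13.8, 10.5 and 10.5 CPM beside 5.47 to 9.32 CPM, was higher by 0.94 ± 0.17 (adjusted p = 0.0096). Hmgcs1 differed by -1.65 ± 0.55 (adjusted p = 0.090) and Idi1 by -1.47 ± 0.47 (adjusted p = 0.081). Without C151S CDDO-Me mouse 1, 14 members were called, 13 of them lower, with Hmgcs1 at -2.32 ± 0.45 (adjusted p = 0.010) and Sqle at -1.57 ± 0.42 (adjusted p = 0.035). In 1 fit of all 30 livers 6 members were called, and with the Arntl set as a covariate Mylip alone was (Insig1 at -0.82, adjusted p = 0.094). More members were also called with the replicate number as a block, as given in the closing section.

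In Nrf2KO mice after CDDO-Me, 3 of 28 members were called, where 9.44% of 13935 genes were, near the share of the members. The median was -0.50 over the members and 0.03 over all genes, and 19 of 20 enzymes were lower. Hsd17b7 differed by -0.83 ± 0.23 (adjusted p = 0.034). Insig1, at 350, 69.6, 212, 179 and 318 CPM, differed by -1.27 ± 0.35 (adjusted p = 0.034) with no overlap. Mylip, at 8.13, 15.0, 7.26, 13.4 and 19.9 CPM, was higher by 0.92 ± 0.27 (adjusted p = 0.041), with mice 1 and 3 within the wild-type range. Scap had an adjusted p of 0.032 with a difference of 0.40 ± 0.11, under the fold threshold. These calls changed with the setting and with single mice. With the Arntl set as a covariate, Mylip, Mvk and Tm7sf2 were called, and Insig1 (-1.47 ± 0.50, adjusted p = 0.095) and Hsd17b7 (-1.01 ± 0.32, adjusted p = 0.071) were not. Without Nrf2KO CDDO-Me mouse 2, 7 members were called, all lower, among them Cyp51 (-0.73 ± 0.17, adjusted p = 0.018), and Mylip was not (adjusted p = 0.064). Without any 1 of wild-type CDDO-Me mice 1, 2, 3 and 4, none was called, and without Nrf2KO CDDO-Me mouse 3 or 4, 1 was. Between C151S and Nrf2KO mice after CDDO-Me, 0 of 28 members were called by edgeR, with 0 under 0.05 before adjustment and 0 by DESeq2, where 0.162% of 14186 genes were called. Without C151S CDDO-Me mouse 1, 2 were under 0.05 before adjustment with a median of -0.47, and without Nrf2KO CDDO-Me mouse 2, 2 were with a median of -0.33; none was called in either. The vehicle, treated and response comparisons use the same groups more than once, so their values are set side by side here and are not independent.

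Insig1 was the one member that separated the genotypes whatever the treatment. All 10 wild-type mice, at 398 to 720 CPM, were above all 20 mutant mice, at 69.6 to 380 CPM, as they were for 0.353% of 15010 genes. No other member had this pattern, and genotype cannot be told apart here from the source of the mice. Its level in the mutants was 69.6 to 349 CPM in the 9 mice with high Arntl and 179 to 380 CPM in the 11 with low Arntl. Among the 6 groups its order by mean was wild-type CDDO-Me (553 ± 128 CPM, SD, n = 5), wild-type vehicle (524 ± 120), Nrf2KO vehicle (304 ± 69), C151S vehicle (298 ± 34), C151S CDDO-Me (278 ± 49) and Nrf2KO CDDO-Me (226 ± 112), and neighbours overlapped except across the step from wild-type to mutant mice.

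Insig2 and Aacs moved with the clock genes instead. Insig2, whose protein also retains SCAP, was at 144, 138, 218, 55.0 and 72.8 CPM in C151S vehicle mice and 98.8, 144, 46.8, 57.2 and 68.6 CPM after CDDO-Me. In Nrf2KO CDDO-Me mice it was at 66.3, 206, 95.6, 87.9 and 109 CPM. Over the 20 mutant mice it was at 98.8 to 218 CPM with high Arntl and at 46.8 to 96.7 CPM with low Arntl, without overlap. Aacs was at 15.1 to 69.1 CPM with high Arntl and 55.4 to 165 CPM with low Arntl. Across the 30 livers the deviations of Insig2 from its group means correlated at 0.87 with those of Arntl, of Soat2 at 0.73, of Aacs at -0.75 and of Stard4 at -0.68, and of the 20 enzymes between -0.44 and 0.22; these describe 2 sets of mice within the mutants and carry no test. The fall of Insig2 in wild-type mice took place with Arntl at 9.53 to 27.7 CPM in vehicle and 11.7 to 18.6 CPM in treated mice, all on the high side.

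**Figure D5:**
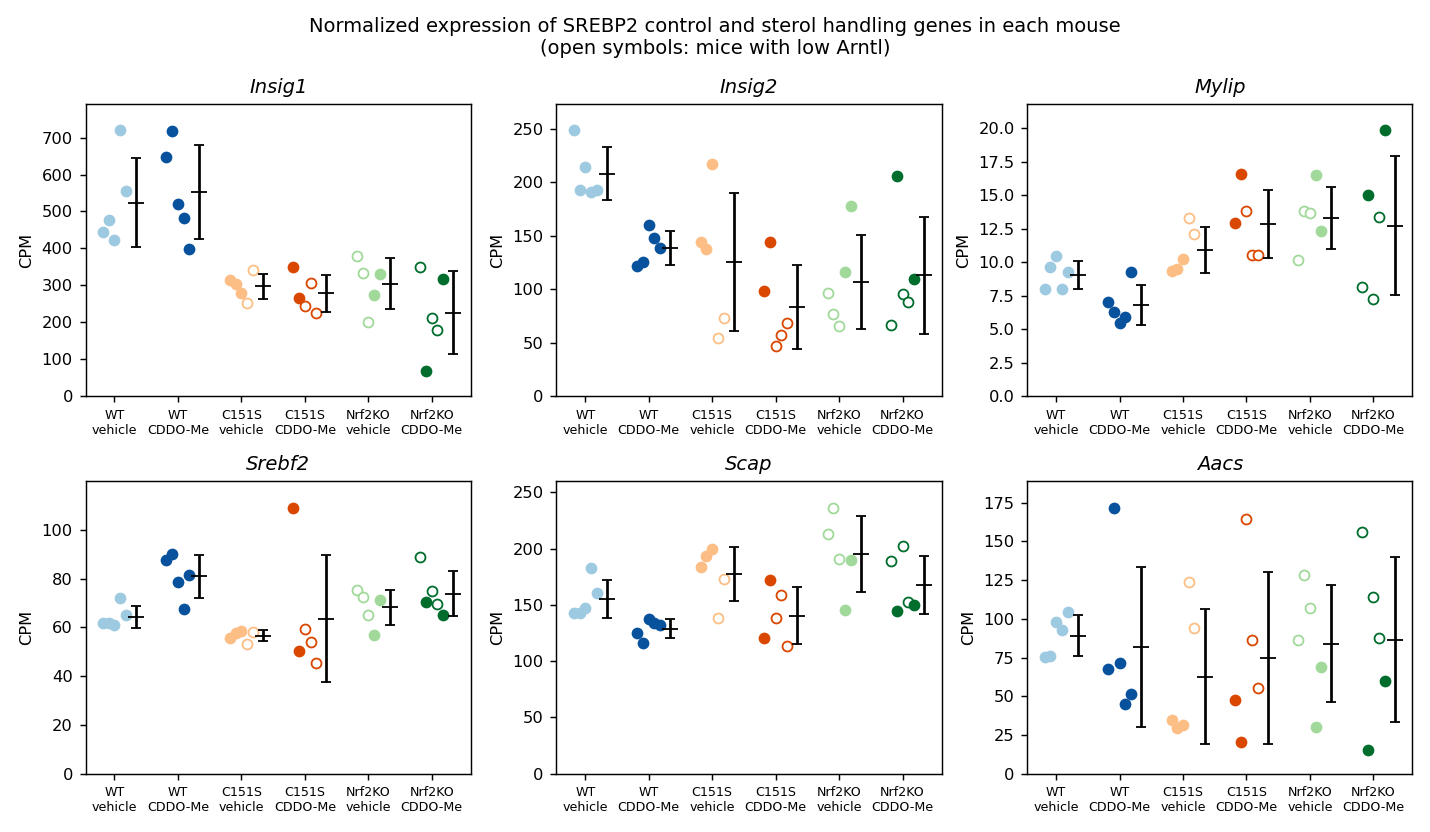
CPM of 6 control and sterol handling genes in each mouse, by group (5 points in each, in mouse order), with the mean and SD as a bar beside them; open symbols are the 11 mutant mice with low Arntl. Insig1 is lower in all mutant mice, Insig2 is lowest in the mice with low Arntl, and Srebf2 in C151S CDDO-Me mouse 1 stands above the rest of its group.

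The group means of Srebf2 ran from 56.6 ± 2.3 CPM in C151S vehicle mice to 81.0 ± 8.8 CPM in wild-type CDDO-Me mice (SD, n = 5). In treated C151S mice it was at 109, 50.3, 59.3, 53.8 and 45.4 CPM, beside 53.1 to 58.6 CPM with vehicle. Mouse 1 was far above the vehicle range and mouse 3 just above it, and mice 2 and 5, which had the lowest enzymes of the group, were below it, with mouse 5 the lowest of all 30 livers. Against treated wild-type mice the difference was -0.33 ± 0.21 (adjusted p = 0.36), and without mouse 1 Srebf2 was called at -0.62 ± 0.11 (adjusted p = 0.0064). In treated Nrf2KO mice it was at 89.0, 70.3, 74.9, 69.7 and 65.0 CPM, with mouse 2, the lowest in enzymes there, inside the vehicle range of 56.8 to 75.2 CPM. Srebf2 shares its strand with the overlapping genes Gm49502 and Mir33. Mylip in C151S vehicle mice, at 9.37, 9.50, 10.3, 13.3 and 12.1 CPM, differed from wild-type mice by 0.28 ± 0.12 (adjusted p = 0.16).

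Other genes of sterol metabolism were compared in the same fits, and none passed both thresholds for CDDO-Me against vehicle. Of 11 genes of SREBP processing and sterol-regulated turnover, 12 of sterol efflux and the LXR axis, 8 of other isoprenoid branches and 8 of acetyl-CoA supply and further SREBP targets (39 in all), 0 were called by edgeR in either direction in any of the 3 genotypes after CDDO-Me, with 10, 8 and 3 under 0.05 before adjustment in wild-type, C151S and Nrf2KO mice. Rnf139 (0.27 ± 0.07) and Tmem97 (0.49 ± 0.07) had adjusted p of 0.046 and 0.0025 in wild-type mice, under the fold threshold. Their median log2 fold changes in wild-type mice were 0.01, -0.07, -0.10 and -0.02. Between genotypes, Rnf145, a ubiquitin ligase of the endoplasmic reticulum, was called higher in the mutants in all 4 comparisons with wild-type mice: by 1.24 ± 0.26 (C151S, vehicle; adjusted p = 0.015), 1.40 ± 0.25 (Nrf2KO, vehicle; 0.0047), 1.50 ± 0.33 (C151S, CDDO-Me; 0.021) and 1.32 ± 0.19 (Nrf2KO, CDDO-Me; 8.7e-04). Fads2, a fatty acid desaturase, was called higher in 3 of the 4, by 0.98 ± 0.26 (Nrf2KO, vehicle), 0.78 ± 0.19 (C151S, CDDO-Me) and 1.17 ± 0.25 (Nrf2KO, CDDO-Me), and not in C151S vehicle mice (0.44 ± 0.14, adjusted p = 0.069). Before scaling for depth, both genes moved with the Arntl split. Rnf145 had 334 to 1065 counts in high-Arntl mutant livers, 1146 to 2496 in low-Arntl ones and 290 to 679 in wild-type livers. Fads2 had 13238 to 24040, 25761 to 78580 and 11807 to 19349. The part of this split in the calls was not tested. The other calls were single: Abcg5 (0.73) in C151S vehicle mice, Abcg1 (0.82) and Npc1 (0.64) in Nrf2KO vehicle mice, and Pdss1 (0.79) and Tmem97 (-0.58) in Nrf2KO mice after CDDO-Me. With vehicle, 2 (C151S) and 4 (Nrf2KO) of the 39 genes were called, where 4.84% and 10.4% of all genes were. After CDDO-Me, 2 (C151S) and 4 (Nrf2KO) were called, where 5% and 9.44% of all genes were. These shares were near the background. None of the 39 genes was called between the mutants or in an interaction, with 6, 0, 6, 2 and 2 under 0.05 before adjustment in those 5 comparisons.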

How the data were processed

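Liver RNA (TruSeq Stranded mRNA, paired-end reads of 50 bases) was sequenced for 30 mice. Per the labels and methods, the authors checked reads with fastp without removing any, aligned them to mm10 with STAR 2.7.7 and deposited raw gene counts on GENCODE M23 (second strand). Their own tests used edgeR 3.36.0 with the date of isolation. The labels give no dates, so the fits here could not adjust for them, and a batch by date cannot be told apart from the groups. The 4 summary rows (19.4 to 34.1% of reads) were left out. Symbols and positions came from GENCODE M21 (54587 of 55335 IDs with the same version).

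The deposited counts were tested with edgeR 4.0.16 in R 4.3.3 (filterByExpr, TMM, quasi-likelihood F-test of the legacy form, Benjamini-Hochberg adjustment over all genes tested). The 10 libraries compared entered each fit, and all 30 entered for interactions. A gene was called at an adjusted p below 0.05 with a log2 fold change of 0.5 or more in size (no fold threshold for interactions). SE was the log2 fold change divided by the root of F. CPM used TMM library sizes, and log2 CPM a prior count of 2. The script was tested on simulated data. No 2 libraries of the same group agreed within sampling noise, and pairs across groups were not compared.

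The members, gene lists and naming rule were chosen with earlier results of these data known. All 28 members are named; values in every mouse are given for Hmgcs1, Sqle, Insig1 and Srebf2 and for the 8 other called members with the lowest adjusted p. Alternatives were DESeq2 1.42.0, RLE size factors, the edgeR 4 form, other filters, no fold threshold, 1 fit of all 30 libraries, the replicate number as a block, the Arntl set as a covariate or alone, and leaving out each mouse. Leaving mice out of the enzyme spread and the correlations was chosen after seeing the data.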

Additional observations from a re-analysis of the deposited data

Results flagged for a closer look

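Of 78 sets of 5 mice examined (12 genes and the mean over the 20 enzymes, in 6 groups), 6 had a mouse far from the other 4 by Dixon's ratio (above 0.71); chance flags about 1 in 20 sets. Nrf2KO CDDO-Me mouse 2 accounted for 5. Its Sqle was 34.6 CPM, beside 143 CPM in the next lowest mouse (ratio 0.95). Its Cyp51 was 47.1 CPM beside 249 CPM (0.76), its Fdft1 66.2 CPM beside 195 CPM (0.80) and its Hsd17b7 32.7 CPM beside 68.6 CPM (0.74). The mean log2 CPM over the 20 enzymes was 4.84 in this mouse and 6.49 in the next lowest (0.93). In C151S CDDO-Me mouse 1, Srebf2 was 109 CPM, beside 59.3 CPM in the next highest mouse (0.78).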

How the results depend on the processing

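The count of called members was recomputed under each other setting. RLE size factors, the edgeR 4 form and the filter of at least 10 counts gave the same counts as reported in all 12 comparisons. In wild-type mice after CDDO-Me, 12 were called; 1 fit of all 30 libraries gave 0, DESeq2 16 and no filter 16, and leaving out 1 mouse gave 6 to 16. For C151S against wild-type after CDDO-Me (2 called), 1 fit of all 30 libraries gave 6, DESeq2 4, no filter 4, the Arntl set as a covariate 1, the high-Arntl mice alone 1, and leaving out 1 mouse 2 to 14. For C151S against wild-type with vehicle (2 called), these gave 0 (1 fit), 5 (covariate) and 4 (high-Arntl mice), and leaving out 1 mouse 2 to 4. For Nrf2KO against wild-type with vehicle (3 called), the covariate gave 1, the high-Arntl mice 1, and leaving out 1 mouse 2 to 5. For Nrf2KO against wild-type after CDDO-Me (3 called), the high-Arntl mice gave 1 and leaving out 1 mouse 0 to 7. The other 7 comparisons gave 0 in every setting run, by edgeR and DESeq2. No called log2 fold change changed sign in 196 refits under other settings, of which 31 lost the call, or in 220 with 1 mouse left out, of which 45 did. The cause of these shifts was not tested.

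The labels do not say whether replicate numbers pair the mice. Over the 2000 genes used, at most 4 of 5 same-numbered pairs correlated above 0.1 in any comparison. That was C151S against wild-type after CDDO-Me, with a mean of 0.25 beside -0.06 for other pairs. The mean was 0.19 beside -0.05 for CDDO-Me against vehicle in Nrf2KO mice, and -0.21 beside 0.05 for C151S against Nrf2KO with vehicle. Shared processing of same-numbered mice was not tested. With the replicate block, 8 members were called in wild-type mice after CDDO-Me, 7 in C151S against wild-type after CDDO-Me, 1 in Nrf2KO against wild-type after CDDO-Me, 2 and 3 in C151S and Nrf2KO against wild-type with vehicle, and 0 elsewhere. No setting with the low-Arntl mice alone could be run against wild-type mice, which were all on the high side; the Arntl settings do not apply within wild-type mice, and the interactions were fitted on all 30 libraries already, with no fold threshold and with no set run alone. All 28 members had at least 80 counts in every library. The part of counting error in the spread between mice was not estimated, and it weighs most in members with few counts, such as Ggps1 and Lbr.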
